A study of Mus musculus with 6 samples.

Results

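The heat shock chaperones described here are 10 genes, Hspa1a, Hspa1b, Hspa8, Hspb1, Hsph1, Hsp90aa1, Hspd1, Hspe1, Dnajb1 and Bag3, taken by name from a table of read counts for 43430 gene IDs. All 10 were found, and all 10 passed the filter on low counts that kept 13005 genes for testing. The counts come from RNA-seq of lung fibroblasts of male C57BL/6J mice, 9 to 11 weeks old. Flow cytometry selected the cells that carry PDGFRA, a receptor for platelet-derived growth factor found on most lung fibroblasts. Mice of the control group breathed room air and those of the other group breathed 10% CO2 for 10 days, an exposure called hypercapnia after the raised CO2 of the blood. Each group has 3 libraries (M1, M2 and M3 in room air, M4, M5 and M6 in hypercapnia), and each library pools cells of 3 animals. Thus 9 mice stand behind each group, and a pool averages over its mice without removing the differences between them.

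Chaperones bind unfolded or newly made proteins, keep them from clumping, and release them for another round of folding. Hsp70 proteins do so in cycles driven by ATP, helped by J-domain proteins that load clients and by exchange factors that release them, while Hsp90, the small heat shock proteins and the barrel-shaped chaperonin of mitochondria serve other clients or later steps. When proteins misfold, the transcription factor HSF1 forms trimers and binds heat shock elements, repeats of the unit nGAAn in alternating orientation, in the promoters of many of these genes. The question set by the design is how the transcripts of PDGFRA-sorted fibroblasts differ between animals kept in high CO2 and animals kept in room air.

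Levels are given as CPM, counts scaled to a common library size with TMM factors (edgeR's correction for library composition), and group values as mean ± SD over 3 libraries. Between 8999780 and 10198336 reads were counted per library, and the members held from 164 to 4722 counts in a library. The fibroblast marker list, carried by its collagens, summed to 21217 to 24589 CPM, and its sort marker Pdgfra lay between 2525 and 3701 CPM, with a log2 fold change of -0.26 and an edgeR adjusted p of 0.383. In the same list the transcription factor Tcf21 was lower in every hypercapnia library, at 607 ± 54.2 CPM against 446 ± 27.5 CPM, and DESeq2 called it where edgeR did not (log2 fold change -0.44, edgeR adjusted p = 0.101). The leukocyte list summed to 10.9 to 60.5 CPM. Most of that was Lyz2, at 10.1 to 58.6 CPM, and Cd68 lay between 0.635 and 3.04 CPM. Ptprc stood at 0.236 CPM in M1 and at 0 in the other 5 libraries, and Cd3e, Adgre1 and S100a8 were at 0 in all 6. Endothelial markers were present in the sorted cells: the 18 genes of the list summed to 829 to 2950 CPM in room air and 2866 to 4775 CPM in hypercapnia, none was at 0, and all 18 had a positive log2 fold change. In edgeR's test 12 of the 18 had an unadjusted p under 0.05, against 12.0% of all tested genes. The groups did not overlap for 7 of the 18, against 18% of all tested genes. No gene of the list passed edgeR's adjusted threshold, while DESeq2 called Egfl7 and Erg. In such pooled cells, fewer cells of a type and less RNA per cell cannot be told apart.

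No chaperone passed the test between the groups. In edgeR's quasi-likelihood test across all 13005 genes, 0 of 10 members had an adjusted p under 0.05, against 1.22% of all tested genes, and 3 of 10 had an unadjusted p under that level, as did 1567 of the 13005, or 12.0%. DESeq2 and limma-voom also called 0 of 10. Without the filter on low counts, edgeR called 5 of 10 members and 756 of 20868 tested genes. That fit took the dispersion to have no gene-to-gene variation, which shrinks the errors of variable genes. All 10 had a lower mean in hypercapnia, with log2 fold changes (hypercapnia minus room air) from -0.97 to -0.14 and a median of -0.43, where the median of all tested genes was 0.01 and 48.5% of them were negative. The median of the members was -0.26 without M1 or without M5 and -0.68 without M4. The members vary together, so these 10 directions are not 10 separate observations. In 0 of 10 members did all libraries of a group lie above all of the other, a separation seen in 18% of all tested genes. For all 10, the ratio between the highest and lowest library was larger in the wider of the 2 groups than the ratio between the group means. In the narrower group it was smaller than that ratio for Hspb1, Hspd1 and Hspe1. The wider group was picked by its spread, and these ratios were not counted over all tested genes. They are thus not shown to be particular to the chaperones.

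**Figure D1:**
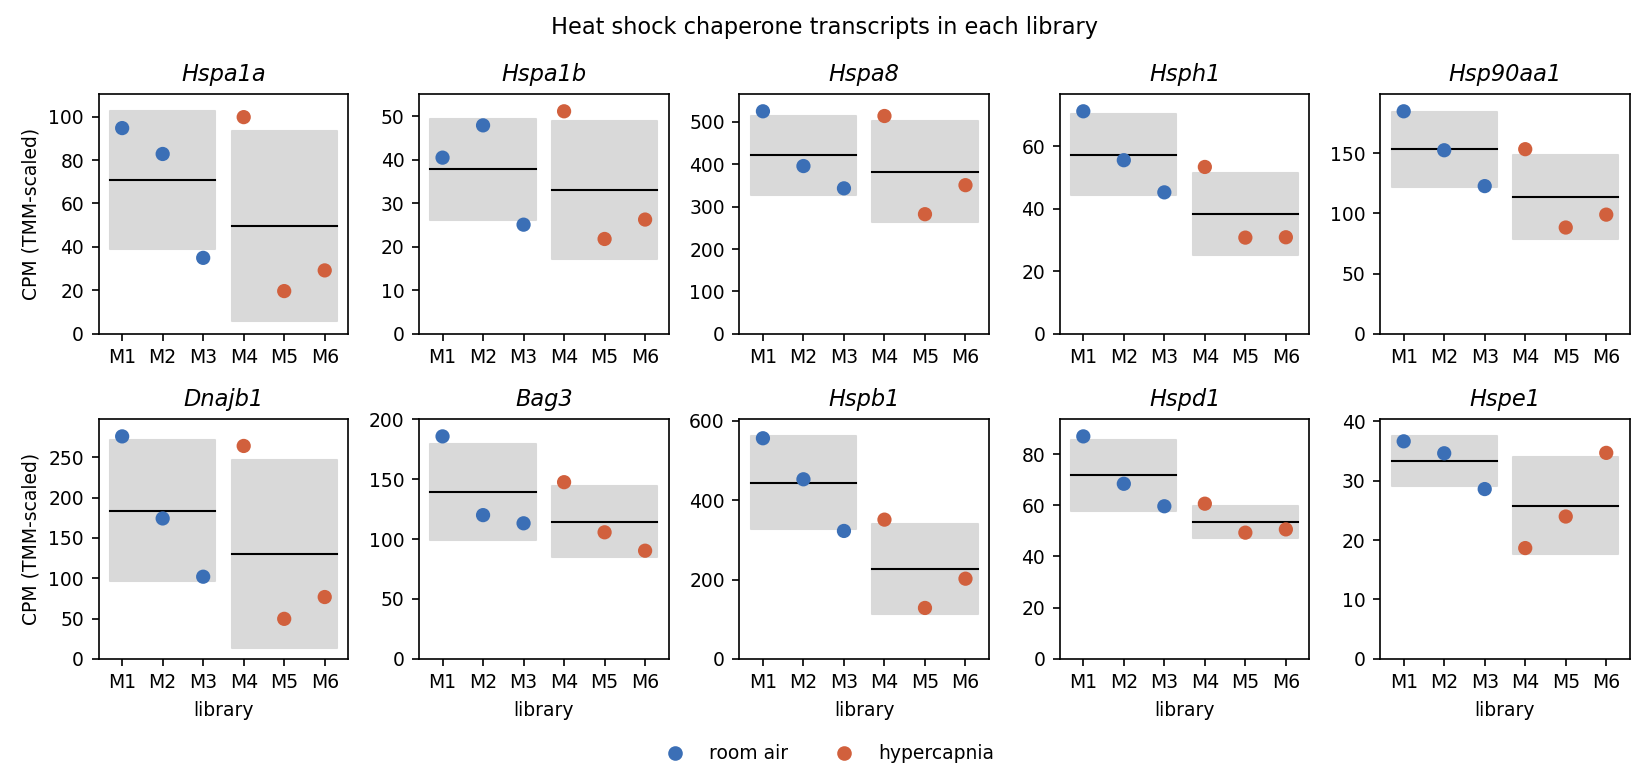
TMM-scaled CPM (vertical axes, from 0) of the 10 chaperones in each library (horizontal axes), with room air in blue and hypercapnia in orange; the line is the group mean and the grey band 1 SD on either side, n = 3. In 9 of 10 panels M4 is the highest hypercapnia library, while M3 is the lowest room air library in all 10. These positions were not counted over all tested genes.

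Hspa1a and Hspa1b encode the stress-inducible Hsp70, whose level is low in resting cells of most tissues and climbs under proteotoxic stress. The genes lie side by side on the minus strand of chromosome 17, Hspa1a at 34969190 to 34972156 and Hspa1b at 34956436 to 34959238 (GRCm38, GENCODE M21), and both are single-exon copies. Their transcripts of 2967 and 2803 bases were identical at 90.7% of 2771 aligned bases, and 52.7% of the windows of 75 bases in Hspa1a occur unchanged in Hspa1b. The reads could therefore be split between the copies or dropped by the counting, and each copy's level is uncertain. A stretch of both promoters is shown because the copies are nearly the same there too, with the heat shock element match in capitals (RefSeq, GRCm38.p6, minus strand, Hspa1a at chr17:34972213-34972300 and Hspa1b at chr17:34959295-34959382):
Hspa1a: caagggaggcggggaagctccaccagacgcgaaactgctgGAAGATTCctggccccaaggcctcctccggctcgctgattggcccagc
Hspa1b: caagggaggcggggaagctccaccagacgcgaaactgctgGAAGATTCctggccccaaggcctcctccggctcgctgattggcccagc
The windows of 300 bases around the 2 start sites differed at 4 bases, none of them in the stretch shown, and both hold GAAGATTC at position -104 from the start.

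Hspa1a had 94.7, 82.8 and 35.0 CPM in M1, M2 and M3, in that order, against 99.8, 19.6 and 29.2 CPM in M4, M5 and M6. The hypercapnia group thus holds both the highest and the lowest library of the series, a 5.08-fold span between M4 and M5. Its log2 fold change was -0.52 ± 0.52 (SE), with a 95% interval from -1.68 to 0.64 and an edgeR adjusted p of 0.781. Without M4 it was -1.53, without M3 -0.85, without M1 -0.26, without M6 -0.25 and without M5 -0.14. Of its exon bases 19.0% also belong to the gene model Gm20481 on the other strand, which held 0 counts in all 6 libraries.

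Hspa1b had 40.5, 48.0 and 25.1 CPM in room air and 51.2, 21.8 and 26.3 CPM in hypercapnia, again with M4 highest and M5 lowest. Its log2 fold change was -0.20 ± 0.32 (SE), from -0.90 to 0.50, and it came to 0.029 without M5 and 0.0095 without M2. With the counts of both copies added, the sums were 135, 131 and 60.1 CPM in room air and 151, 41.5 and 55.5 CPM in hypercapnia. The added counts gave a log2 fold change of -0.40 ± 0.43 (SE), from -1.35 to 0.56, with an edgeR adjusted p of 0.802. Left-out libraries moved this value from -1.16 without M4 to -0.08 without M5. Hspa1a's share of the added counts was 70.0%, 63.3% and 58.2% in room air and 66.1%, 47.4% and 52.6% in hypercapnia. The share was thus higher in M1, M2 and M4, the libraries with the most counts of both copies, than in M3, M5 and M6.

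Hspa8 encodes Hsc70, the constitutive Hsp70 of the cytosol, which also strips clathrin from vesicles. It lies on chromosome 9 (40800984 to 40810087, plus strand), and its transcript shared no window of 75 bases with either Hspa1a or Hspa1b. It reached 525, 396 and 343 CPM in room air and 514, 282 and 351 CPM in hypercapnia. M1 and M4 were almost level at the top, and the group means of 421 ± 93.6 and 382 ± 119 CPM differed by less than 1 SD. Its log2 fold change of -0.14 ± 0.22 (SE) was the nearest to 0 of the 10, from -0.62 to 0.34. It was 0.037 without M5 and 0.048 without M1. Small nucleolar RNA genes of the Snord14 family cover 6.09% of its exon bases on the same strand, and each held 0 counts.

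Hsph1 encodes Hsp105, an Hsp110-type protein that serves Hsp70 as an exchange factor and binds unfolded clients itself. It lies on chromosome 5 (149614287 to 149636376, minus strand). Around its start the promoter window holds 3 matches to the element, of which TTCTGGAA and GAAAGTTC overlap to form 3 alternating units, and the stretch that contains them (RefSeq, GRCm38.p6, chr5:149636287-149636409, minus strand) is shown with the matches in capitals:
Hsph1: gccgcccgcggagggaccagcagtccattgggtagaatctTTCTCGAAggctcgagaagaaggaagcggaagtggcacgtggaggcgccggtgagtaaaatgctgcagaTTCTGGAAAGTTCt
Its transcript had 71.2, 55.5 and 45.2 CPM in room air and 53.4, 30.7 and 30.9 CPM in hypercapnia. M4 lay among the room air libraries, and M5 and M6 lay below all of them. This gave a log2 fold change of -0.58 ± 0.23 (SE), from -1.10 to -0.06, with an edgeR adjusted p of 0.337.

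Dnajb1 encodes the main stress-inducible Hsp40, a J-domain protein that brings clients to Hsp70 and starts its ATP cycle. It lies on chromosome 8 (83608193 to 83612653, plus strand). It had the widest fold range of the 10, 5.56 between the highest and lowest library, with 276, 174 and 102 CPM in room air and 264, 49.6 and 76.7 CPM in hypercapnia. The ratio of the highest to the lowest library was 2.71 inside room air and 5.32 inside hypercapnia, against 1.41 between the group means. The log2 fold change was -0.50 ± 0.53 (SE), from -1.67 to 0.67, with an edgeR adjusted p of 0.797. Without M4 it was -1.54, and without M1 it was -0.09.

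Bag3 encodes an exchange factor of Hsp70 that also binds small heat shock proteins and directs damaged proteins to autophagy. It lies on chromosome 7 (128523616 to 128546981, plus strand). It had 186, 120 and 113 CPM in room air and 147, 106 and 90.2 CPM in hypercapnia, so M1 stood highest and M6, not M5, lowest. Between the groups the log2 fold change was -0.29 ± 0.22 (SE), from -0.76 to 0.19, and it was -0.03 without M1.

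Hsp90aa1 encodes the stress-inducible Hsp90, which holds kinases and steroid receptors in a form ready for activation. It lies on chromosome 12 (110690605 to 110702728, minus strand). Its level was 185, 153 and 123 CPM in room air and 153, 88.3 and 99.0 CPM in hypercapnia. M2 and M4 were level, and M5 and M6 lay below every room air library. The log2 fold change was -0.43 ± 0.21 (SE), from -0.90 to 0.03, with an edgeR adjusted p of 0.452.

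Hspb1 encodes Hsp25, the mouse counterpart of human Hsp27, a small heat shock protein that holds unfolding proteins without ATP and acts on actin filaments. It lies on chromosome 5 (135887919 to 135889563, plus strand) and showed the lowest fold change of the 10. Room air libraries had 556, 453 and 323 CPM and hypercapnia libraries 351, 128 and 202 CPM. Only M4 reached into the room air range, just above M3. The means were 444 ± 117 and 227 ± 113 CPM, a log2 fold change of -0.97 ± 0.31 (SE) with a 95% interval from -1.65 to -0.28, an unadjusted p of 0.0103 and an edgeR adjusted p of 0.202. Without M4 it was -1.42 with an edgeR adjusted p of 0.0230, the only call among the 10 when a library was left out. Over its alternatives the adjusted p ran from 0.547, in edgeR's robust fit, to 2.89e-10, in edgeR's fit without a filter on low counts. The latter fit allowed no gene-to-gene variation of the dispersion, so its errors for variable genes shrink.

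Hspd1 and Hspe1 encode Hsp60 and Hsp10, the barrel and the lid of the mitochondrial chaperonin. They are neighbours on chromosome 1, Hspd1 at 55077835 to 55088243 on the minus strand and Hspe1 at 55088132 to 55091307 on the plus strand, and they start from a common promoter in opposite directions. Their annotated exons share 112 bases on opposite strands, 4.24% of Hspd1 and 7.60% of Hspe1. Of 2 pseudogenes named for Hspd1 and 5 named for Hspe1, none had more than 2 counts over all libraries. The shared promoter (RefSeq, GRCm38.p6, chr1:55088019-55088116, read on the plus strand toward Hspe1) is shown because it holds a run of 3 overlapping matches, 4 alternating units in all, in capitals:
Hspe1: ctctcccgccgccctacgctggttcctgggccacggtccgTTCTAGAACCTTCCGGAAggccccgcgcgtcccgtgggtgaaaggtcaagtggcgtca

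Hspd1 had 86.9, 68.4 and 59.6 CPM in room air and 60.6, 49.3 and 50.6 CPM in hypercapnia. M4, with 533 counts, exceeded M3, with 563, by about 1 CPM, which is all the overlap there was between the groups and lies within counting error, and with library sizes alone in place of TMM factors the groups did not overlap. The log2 fold change was -0.42 ± 0.16 (SE), from -0.77 to -0.08, with an unadjusted p of 0.0213 and an edgeR adjusted p of 0.287. Hspe1, its partner, had 36.6, 34.6 and 28.6 CPM in room air and 18.7, 24.0 and 34.7 CPM in hypercapnia. Here M4, high for the other members, was the lowest library, and M6 was level with M2. The log2 fold change was -0.36 ± 0.22 (SE), from -0.85 to 0.12, with an edgeR adjusted p of 0.579. Without M4 it was -0.18, and without M6 it was -0.64.

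**Figure D2:**
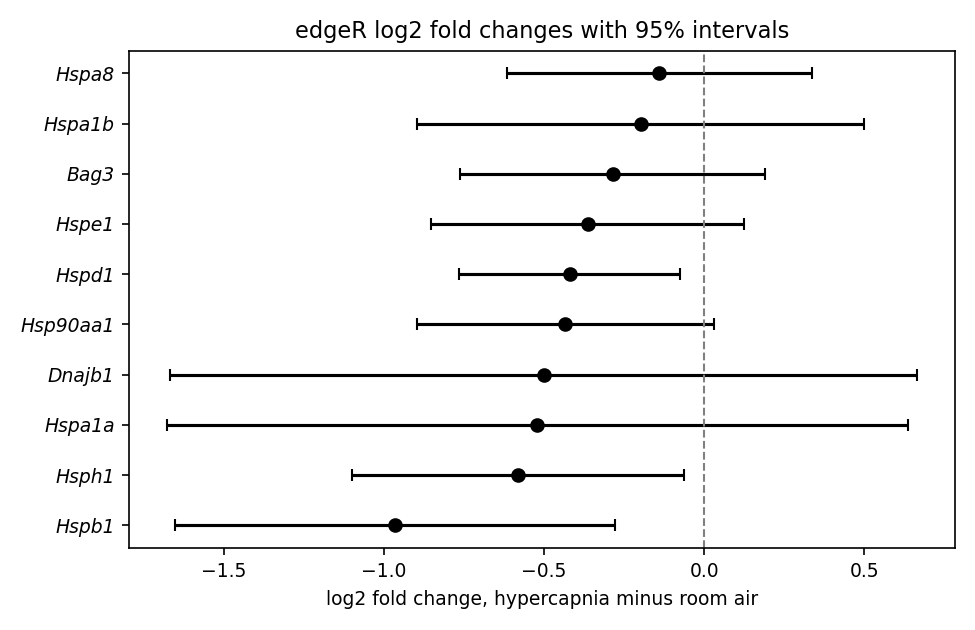
edgeR log2 fold changes of the 10 chaperones, hypercapnia minus room air (horizontal axis), with 95% intervals; genes are ordered by fold change. All 10 points lie below 0, from Hspa8 at -0.14 to Hspb1 at -0.97, and the intervals of 7 genes include 0.

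For all members but Hspd1 and Hspb1, the larger part of the variation lay between libraries of a group, as it did for most tested genes. The share of a gene's sum of squares (log2 CPM) found between the groups had a median of 25.9% over the 10 members, and of 18.1% over all tested genes. It was 55.2% for Hspd1 and 54.8% for Hspb1, the members whose group difference weighed most, and 16.8% for Hspa1a, 17.2% for Dnajb1 and 6.39% for Hspa1b. The biological coefficient of variation, edgeR's estimate of the spread between libraries of a group beyond counting error, was 44.5% for Dnajb1 and 44.0% for Hspa1a, at the 91.7 and 91.4 percentiles of all tested genes. It was lowest for Hspd1, at 14.7% and the 32.3 percentile. The median was 20.9% over the members and 17.4% over all tested genes, which include many genes of much lower counts and thus wider spread.

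**Figure D3:**
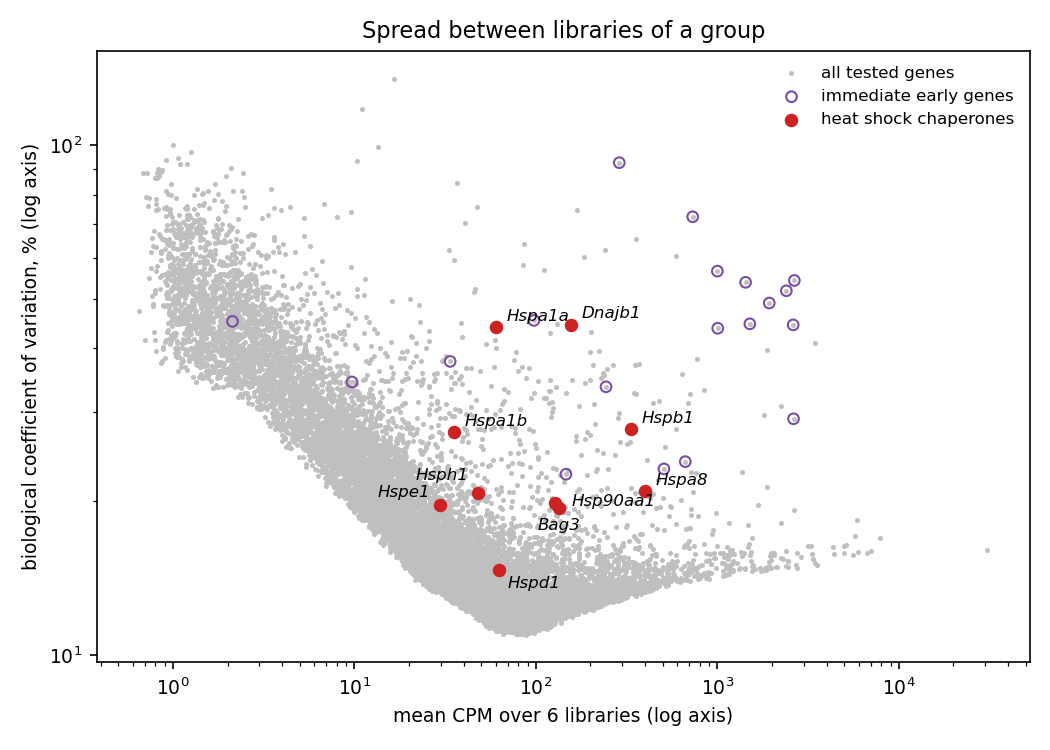
Biological coefficient of variation (percent, log axis) against mean CPM over 6 libraries (log axis) for all 13005 tested genes in grey, the 10 chaperones as filled points and 19 immediate early genes as open circles. Hspa1a and Dnajb1 lie at 44.0% and 44.5%, far above most genes of their level, and Hspd1 lies among them at 14.7%.

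The libraries kept nearly the same order from member to member. M1, M2 and M4 were, in any order, the 3 highest libraries for 9 of 10 members, Hspe1 being the exception with M1, M2 and M6. The same 3 were highest for 8.11% of all tested genes. In the further lists of folding genes described below, the count ran from 0 of 4 heat shock factors to 2 of 5 small heat shock proteins. It was 3 of 10 for the J-domain genes, so the order is not limited to the members. This set of libraries was named after the members' values were seen, so the count for the members describes them and tests nothing. M5 was the lowest library for 8 of 10, a position that was not counted over all tested genes. Averaged over the members, a library lay above or below the mean of the 6 by 0.61 in M1, 0.31 in M2 and -0.16 in M3 of room air, and by 0.33 in M4, -0.69 in M5 and -0.40 in M6, in log2 units. The 10 genes together took 0.194%, 0.155% and 0.122% of the counts of the room air libraries, against 0.167%, 0.0835% and 0.104% of the counts in M4, M5 and M6. A room air library, M3, and a hypercapnia library, M4, thus lay on the side where most libraries of the other group were found.

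Deviations from the group means showed which members moved together. The correlation of these deviations over the 6 libraries was 0.63 to 0.99 for the 36 pairs without Hspe1, with a median of 0.91. The closest pair was Hsp90aa1 and Dnajb1, at 0.99, and the loosest was Hspa1b and Bag3, at 0.63. Hspe1 stood apart, at -0.39 to -0.05 over its 9 pairs, with -0.05 for Hspd1, which shares its promoter. Without removal of the group means, Hspe1 correlated at 0.41 with Hspd1 and at 0.33 with Hspb1. These are descriptions over 6 points that share their libraries and, within a group, a common mean.

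**Figure D4:**
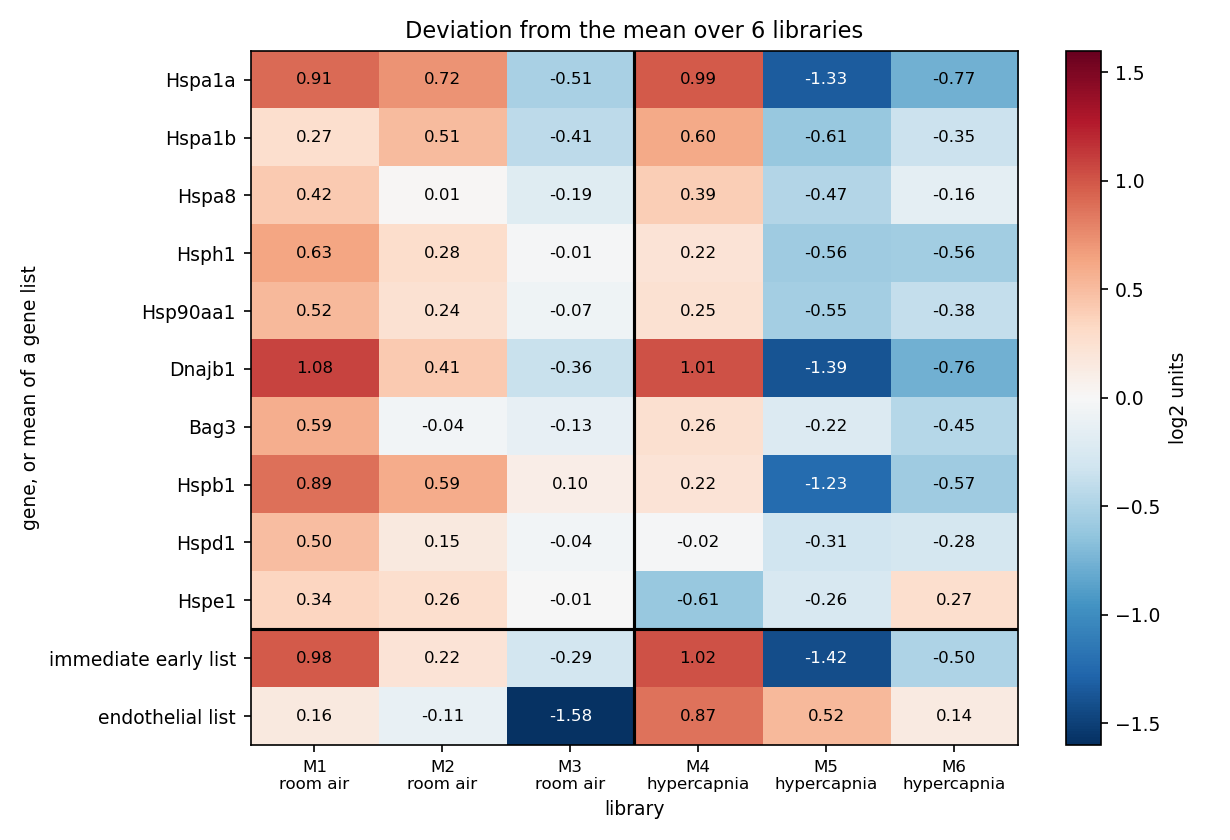
Deviation of log2 CPM from the mean over 6 libraries (colour and printed value, log2 units) for the 10 chaperones and, below the line, for the mean of the immediate early gene list and of the endothelial marker list; columns are libraries, with room air left of the vertical line. M1 and M4 are high and M5 is low for the immediate early list, at 0.98, 1.02 and -1.42, while the endothelial list has M3 lowest, at -1.58.

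Immediate early genes, which encode transcription factors and feedback inhibitors switched on within minutes of many stimuli, cell dissociation among them, followed the same order of libraries. M1, M2 and M4 were the 3 highest libraries for 16 of 19 such genes. The list summed to 36117, 21229 and 14156 CPM in room air and 31825, 5532 and 10611 CPM in hypercapnia. The stress-responsive factor Atf3, chosen after its values were seen, had 771, 223 and 56.7 CPM in room air and 635, 12.0 and 31.6 CPM in hypercapnia. As for Hspa1a and Dnajb1, M4 stood beside M1 and far above M5 and M6. None of the 19 passed edgeR's test, with 1 unadjusted p under 0.05 and 0 calls by DESeq2 or limma-voom. Of the 19, 15 had a negative log2 fold change, and the median was -0.46. In a fit added after seeing the data, with the mean level of this list as a covariate, the median log2 fold change of the 10 chaperones was -0.21, 8 of 10 were negative, and Hspb1 had -0.70 with an edgeR adjusted p of 0.00997, among 244 genes called.

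Other measures moved with the order in part. Transcripts of the mitochondrial genome held 0.699%, 0.688% and 0.708% of the counts in M1, M2 and M4, and 1.14%, 0.811% and 0.940% in M3, M5 and M6. Airway epithelial markers summed to 322, 550 and 378 CPM in room air and 350, 146 and 273 CPM in hypercapnia, again with M5 lowest. Mesothelial markers summed to 11.8, 20.5 and 14.7 CPM in room air and 59.4, 7.56 and 23.6 CPM in hypercapnia, with M4 apart from the rest. Alveolar epithelial markers summed to 274, 246 and 114 CPM in room air and 177, 314 and 320 CPM in hypercapnia. These sums were highest in M6 and M5, where most chaperones were low, with Sftpc alone at 189 and 168 CPM there. As a mean of log2 levels the same list was highest in M1 and M2, at 3.99 and 3.90, against 3.68 in M6 and 3.46 in M5. The part of any of these in the chaperone levels was not tested. The endothelial list had another order, with M4 highest and M3 lowest. With its mean level as a covariate, 200 of 13005 genes passed the test, Hspb1, Hsph1 and Hspd1 among them, at log2 fold changes of -1.49, -1.01 and -0.69 and edgeR adjusted p of 0.0266, 0.0421 and 0.0477, and the median of the 10 was -0.81. That covariate was itself mostly higher in hypercapnia, at 0.16, -0.11 and -1.58 in M1, M2 and M3 against 0.87, 0.52 and 0.14 in M4, M5 and M6. Group and endothelial level can therefore not be fully told apart in this fit.

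Per length of exon, Hspb1 was the most abundant of the 10 in room air, at 431 ± 114 RPKM (CPM divided by the exon length in kilobases). Hspa8 followed at 98.0 ± 21.8 RPKM, clear of Hspb1 by more than the SD of either. Dnajb1 at 57.4 ± 27.3 RPKM, Bag3 at 54.5 ± 15.6 RPKM and Hsp90aa1 at 39.0 ± 7.91 RPKM had overlapping ranges of mean ± SD. The same held for Hspd1 at 27.1 ± 5.28 RPKM, Hspa1a at 23.9 ± 10.7 RPKM and Hspe1 at 22.6 ± 2.84 RPKM. The genes share their libraries and most vary together, so such overlap does not show that their levels are equal. Hspa1b at 13.5 ± 4.16 RPKM and Hsph1 at 7.89 ± 1.80 RPKM were lowest. In hypercapnia Hspb1 and Hspa8 were again on top, at 220 ± 110 and 88.9 ± 27.7 RPKM. Lengths are those of all annotated exons joined, so a gene with unused exons, such as Hspa8 with 4301 bases of exon against a transcript of 2394, is understated.

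The medians of 9 further lists of folding genes lay between -0.31 and 0.01, nearer to 0 than the -0.43 of the members. Of their 67 tested genes 0 passed edgeR's test in either direction and 6, or 8.96%, had an unadjusted p under 0.05, against 12.0% of all tested genes, while DESeq2 called Fkbp5 and Hspa5 and limma-voom called none. Of 4 further Hsp70 and Hsp110 genes tested, 2 were negative, with a median log2 fold change of -0.04; Hspa4, a relative of Hsph1, had 154, 143 and 128 CPM in room air and 122, 97.8 and 117 CPM in hypercapnia, a log2 fold change of -0.33 ± 0.12 (SE, edgeR adjusted p = 0.287). Of 9 Hsp90 and co-chaperone genes, 6 were negative and the median was -0.06. Fkbp5, a co-chaperone of the glucocorticoid receptor and itself a target of that receptor, went the other way, with 29.7, 31.1 and 36.8 CPM in room air and 48.3, 51.2 and 45.9 CPM in hypercapnia. The groups did not overlap, and the log2 fold change was 0.58 ± 0.14 (SE, edgeR adjusted p = 0.0895).

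Among 10 J-domain genes 8 were negative, with a median of -0.11, and among 8 further Hsp70 co-chaperones 4 were negative, with a median of 0.01. The J-domain gene Dnajb5 had a log2 fold change of -0.30 and the Hsp70 exchange factor Bag2 of -0.50, with edgeR adjusted p of 0.520 and 0.540. Of 5 small heat shock protein genes tested, 4 were negative with a median of -0.31. Cryab, the alpha-B crystallin also found in the lens, had 90.0, 112 and 102 CPM in room air and 88.6, 69.9 and 84.4 CPM in hypercapnia, without overlap (log2 fold change -0.32 ± 0.13, edgeR adjusted p = 0.345). Of 7 mitochondrial chaperones and proteases, 6 were negative with a median of -0.06, and Dnaja3, a mitochondrial J-domain protein, had -0.30 with an edgeR adjusted p of 0.470.

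All 8 subunits of TRiC, the chaperonin of the cytosol that folds actin and tubulin, were negative, with a median of -0.20, from -0.26 for Cct3 to -0.01. Of 12 chaperones of the endoplasmic reticulum 10 were negative, with a median of -0.13. Hspa5, the Hsp70 of that compartment, known as BiP, had the smallest p of the folding genes after Fkbp5. It stood at 1102 ± 128 CPM with room air against 758 ± 142 CPM with hypercapnia, without overlap, a log2 fold change of -0.54 ± 0.15 (SE) with an edgeR adjusted p of 0.138. The regulator Hsf1 had 39.5, 44.5 and 40.7 CPM in room air and 35.0, 29.1 and 31.8 CPM in hypercapnia. Its groups did not overlap either, with a log2 fold change of -0.38 ± 0.14 (SE) and an edgeR adjusted p of 0.287. Hsf1 did not share the order of the chaperones, since its 3 highest libraries were those of room air.

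Among 7303 other genes that reached a mean of 20 CPM, those most like the mean standardised level of the 10 members over the 6 libraries were Ddx21, Spryd3, Pfkfb3, Phf13 and Myd88. Their Pearson correlations were 0.995, 0.994, 0.991, 0.988 and 0.987, over 6 points. Ddx21, an RNA helicase of the nucleolus, had 73.2, 62.5 and 45.9 CPM in room air and 61.4, 36.9 and 41.7 CPM in hypercapnia. Pfkfb3, an enzyme that sets the rate of glycolysis, had 301, 275 and 235 CPM in room air and 270, 205 and 231 CPM in hypercapnia. Their fold spans were smaller than those of Hspa1a and Dnajb1. The members' own correlations with that mean, which includes them, were 0.85 to 0.995, and 0.23 for Hspe1.

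Promoter windows of 250 bases before to 50 after the start were at hand for 8 of 10 members, in 11 windows, with none for Hspa8 and Hsp90aa1. A pair of inverted units, GAANNTTC or TTCNNGAA (each reads the same on both strands, and matches may overlap), was present for 7 of the 8, and in 15.1% of 32851 RefSeq windows of the same length. This count and the next are per gene, with a match in any of its windows, while the shares are per window. Hspa1a and Hspa1b, with nearly the same promoter, are both in the 7. A run of at least 3 alternating units was present for Hsph1, Hspd1 and Hspe1, and in 0.603% of the windows. The run has 3 units in Hsph1 and 4 in Hspd1 and Hspe1. Those of Hspd1 and Hspe1 count as the same run, since 1 of the 2 windows of Hspd1 shares 285 bases with that of Hspe1, on opposite strands. The other window of Hspd1, around its annotated start at 55088243, held 0 matches and shares 4 bases with that of Hspe1. Dnajb1, the member with the widest fold range, had no match in either of its 2 windows, and Hspe1, which stood apart in its order of libraries, holds the 4-unit run printed with its promoter. A match describes these letters and shows no binding, and the lack of a match says only that the letters are not in the window.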

How the data were processed

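RNA-seq was measured in 6 libraries of PDGFRA-sorted mouse lung fibroblasts, 3 per group. The deposited values are raw counts per Ensembl gene ID, not normalized. The submitters' processing notes name TopHat2 (2.1.0), HTSeq, bcl2fastq (2.17.1.14), FastQC and, as the genome build, mm10. The annotation release, strand setting and handling of reads that map to several places, not given in the sources used here, bear on Hspa1a and Hspa1b and on overlapping genes. Column names give the group but sample numbers that differ from the titles, so each column was assigned to a group only. Per the labels, each replicate pools 3 mice. Gene names matched 42546 of 43430 IDs, and 42462 were placed in GENCODE M21. IDs without a symbol held 0.0761% to 0.0958% of the counts and entered library sizes and tests.

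Counts were fitted with edgeR 4.0.16 (R 4.3.3): TMM factors, default filter with a minimum count of 10, quasi-likelihood F-test, two-sided, group as the only term, 4 residual degrees of freedom and Benjamini-Hochberg adjustment over all tested genes, with a threshold of 0.05. SE is the size of the log2 fold change divided by the square root of F, and 95% intervals use the test's total degrees of freedom. Log2 levels use CPM + 0.5. The script was tested on simulated data. Total counts exceed the average depth named in the labels, and 3 counts correspond to 0.281 to 0.353 CPM. The chi-square per degree of freedom between libraries was at least 13.3, so none repeats another.

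The members and gene lists were chosen with earlier results of these data known. All members are described. From each list up to 3 genes with the smallest p may be named, with every called gene, from marker lists the summed level, and the 5 non-members most like the members' mean. Alternatives were RLE factors, library size only, other count filters, DESeq2 1.42.0, limma-voom 3.58.1, robust fitting, marker-level covariates and leaving out each library. Promoter sequences are RefSeq's, GRCm38.p6.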

Additional observations from a re-analysis of the deposited data

How the results depend on the processing

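No paired analysis was possible because the columns carry no replicate numbers shared between groups. Over all genes the calls rose from 159 to 756 without a low-count filter, 435 with DESeq2, 255 with robust fitting and, in an alternative chosen after seeing the data, 244 with the immediate early level as a covariate. Leaving out 1 library gave 24 to 148, with 24 without M2, 27 without M5 and 42 without M6. The members called numbered 5 without the filter (Hspa1a, Hspb1, Hsph1, Hsp90aa1 and Dnajb1), 3 with the endothelial covariate, 1 with the immediate early covariate and 0 to 1 when a library was left out. The endothelial covariate was itself mostly higher in hypercapnia, so its part cannot be fully told apart from that of the group. Without the filter edgeR fitted no gene-to-gene variation of the dispersion, so its errors for variable genes shrink. Members without overlap between groups numbered 1 with library sizes alone (Hspd1) and 0 to 7 when a library was left out. There were 7 without M4 (29.6% of all tested genes), 4 without M3 (30.4%) and 1 without M6 (29.4%). Hspa1b turned to 0.028 and Hspa8 to 0.067 with the immediate early covariate, and left-out libraries moved them over -0.65 to 0.029 and -0.41 to 0.048. The cause of these shifts was not tested. The other 8 members stayed negative under all 15 alternatives. The added counts of Hspa1a and Hspa1b passed the threshold under none of the alternatives, with log2 fold changes from -1.32 with the endothelial covariate to -0.08 without M5. Library sizes alone shifted the median of all genes to 0.07, and 8 members then had M1, M2 and M4 highest. In the fit with the filter, the spread of Hspa1a and Dnajb1 between libraries left intervals that include 0.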
